A study of Mus musculus with 6 samples.

Results

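The paralogs miR-204-5p (MIMAT0000237) and miR-211-5p (MIMAT0000668) are 2 of the 707 mature miRNAs counted in white adipose tissue (WAT) of ApoE-deficient mice, and they were taken from the table by accession. Small RNA libraries were made from 3 control samples and from 3 samples exposed to chronic intermittent hypoxia (CIH). All animals were male and lacked apolipoprotein E, in the control group as well, so there was no wild-type group. CIH lasted 8 weeks, with oxygen lowered from 21% to about 6% and raised again in cycles. The age of the mice is not given in the sources used here, and the labels do not say that each library came from a separate mouse, so p-values measure the spread between these libraries. The study selected miR-211-5p for RT-qPCR as an upregulated miRNA from these same libraries, so its sequencing counts are no independent evidence of that direction.

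A mature miRNA guides silencing complexes to mRNAs mainly through its seed, the stretch near the 5′ end that pairs with target sites, so paralogs with the same seed share most predicted targets. miR-204 and miR-211 come from introns of genes of the melastatin family of cation channels. miR-204 is abundant in retinal pigment epithelium, and in mesenchymal progenitor cells it is known to repress the bone factor Runx2 and to favour adipocyte over osteoblast fate. miR-211 is known from melanocytes, where the transcription factor MITF drives it together with its host gene Trpm1.

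The mature sequences show how alike these miRNAs are. Both are printed from RefSeq (build GRCm38.p6), 5′ to 3′, with the seed (bases 2 to 8) in capitals.

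miR-204-5p: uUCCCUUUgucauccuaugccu

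miR-211-5p: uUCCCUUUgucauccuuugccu

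They had the same base at 21 of 22 positions. The difference was A17U, counted from the 5′ end with the base of miR-204-5p first. It lies outside the seed, so reads are told apart only if they cover base 17. Of the 1679 mature names in the RefSeq table, 40 (2.38%) had another mature sequence of equal length at a distance of 1 base. The seed UCCCUUU was shared by 3 names, these paralogs and miR-7670-3p, whose counts are not analysed here.

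The hairpins differ far more than the 5p arms. They are shown with both mature arms in capitals, to place the single difference in the precursors.

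Mir204: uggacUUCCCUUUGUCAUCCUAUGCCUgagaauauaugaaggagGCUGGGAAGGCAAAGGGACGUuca

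Mir211: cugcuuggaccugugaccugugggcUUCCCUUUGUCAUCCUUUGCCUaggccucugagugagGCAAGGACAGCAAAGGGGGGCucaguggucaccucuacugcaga

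Mir204 is 68 bases long and lies at chr19:22750605-22750672 on the plus strand. It lay in an intron of Trpm3 in each of the 18 GENCODE M21 transcripts that span it. Mir211 is 106 bases long and lies at chr7:64205806-64205911 on the plus strand, in an intron of Trpm1 in each of the 12 transcripts that span it. The 3p arms, both 21 bases long, were 7 edits apart, against 1 for the 5p arms. Their counts are not analysed here, since the table lists accessions only and no list that pairs them with names was used here.

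The gene-specific primer listed for the RT-qPCR of miR-211-5p bears on the same difference. It is shown with the bases that match the mature miRNA in capitals, the DNA letter T standing for U.

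miR-211-5p primer: ggTTCCCTTTGTCATCCT

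Its last 16 bases matched bases 1 to 16 of miR-211-5p and equally bases 1 to 16 of miR-204-5p, and no other mature sequence in the table held them. The primer therefore ends next to the base that differs. The reverse transcription primer was not examined here, and what the assay read was not tested.

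The libraries held between 636963 and 4783768 counts, with Control 2 the deepest. Library totals were corrected with TMM factors, which adjust for differences in composition and lay between 0.575 and 1.45, and levels are given as TMM-normalized CPM, counts scaled to a common library size. Control 1 and Control 2 stood apart from the other 4 libraries: across the 633 miRNAs tested, their log2 CPM correlated with those at 0.595 to 0.712, while Control 3, CIH 1, CIH 2 and CIH 3 gave values of 0.952 to 0.974 among themselves. The fitted fold changes and the ratios between the groups are therefore also given without Control 3. Control 3 was picked for this from the same data, and only Control 1 and Control 2 then remain as controls. The p-values of the fits without it are therefore a description only. The tissue label was not checked against marker miRNAs for the same reason as the 3p arms.

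miR-204-5p was the more abundant paralog and was low in 2 of the 6 libraries. It was counted 7, 91 and 149 times in Control 1, 2 and 3, and 169, 233 and 150 times in CIH 1, 2 and 3. These counts correspond to 8.91, 22.0 and 134 TMM-normalized CPM for Control 1, 2 and 3, and to 136, 252 and 163 CPM for CIH 1, 2 and 3. Control 3 stood beside CIH 1, with 95% counting intervals of 114 to 158 and 116 to 158 CPM, and Control 1 and Control 2 were far below both. Such intervals cover counting error only. In the order of abundance miR-204-5p took ranks 136 to 180 among the 707 miRNAs in Control 3 and the CIH libraries, and ranks 247 and 328 in Control 2 and Control 1.

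miR-211-5p was close to the limit of detection. It was counted 2, 0 and 2 times in Control 1, 2 and 3, and 4, 9 and 6 times in CIH 1, 2 and 3. These counts correspond to 2.55, 0 and 1.80 CPM for Control 1, 2 and 3, and to 3.21, 9.72 and 6.51 CPM for CIH 1, 2 and 3. Each control library was at or under the 3 counts that a count of 0 allows, and each CIH library was above it. In Control 2 that limit was 0.724 CPM, and the mean level of the CIH libraries would have given 26.9 counts there. Control 3 did not stand with the CIH libraries for miR-211-5p by its value, but its counting interval of 0.218 to 6.51 CPM overlapped those of all CIH libraries.

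**Figure D1:**
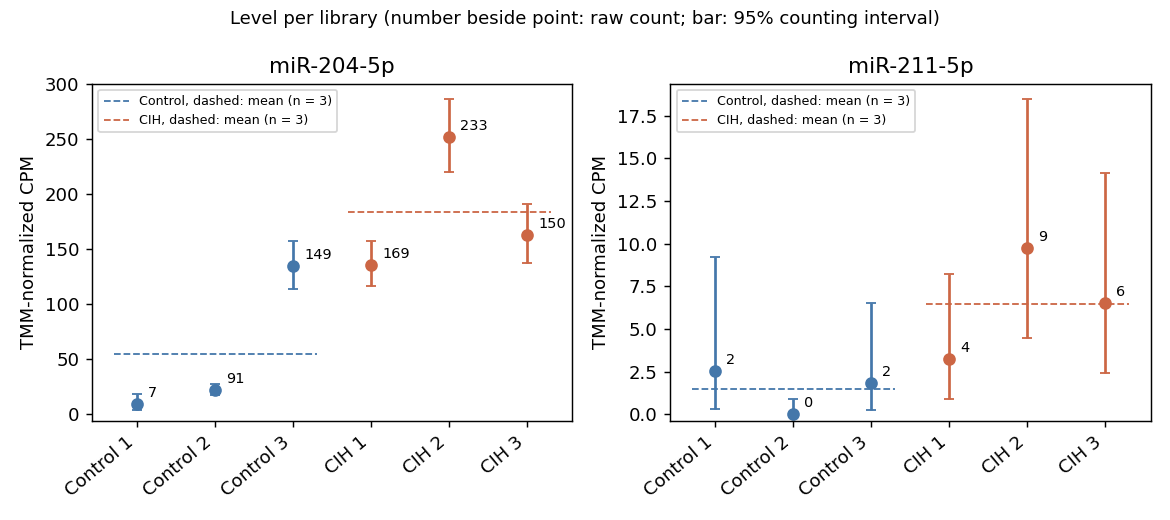
TMM-normalized CPM (vertical axis, from 0) of miR-204-5p (left) and miR-211-5p (right) in each library. Points are libraries with their raw count, bars are 95% counting intervals and dashed lines are group means (n = 3); miR-204-5p in Control 3 (134 CPM) is level with CIH 1 (136 CPM), while miR-211-5p in Control 3 rests on 2 counts.

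The comparison of the CIH and control groups asked whether the paralogs changed with hypoxia, and neither passed the test. miR-204-5p averaged 55.1 ± 68.9 CPM (SD, n = 3) under control conditions and 183 ± 60.7 CPM (SD, n = 3) under CIH. The fitted log2 fold change was 1.74, with a standard error of 1.04 and a 95% interval of -0.76 to 4.23 (edgeR quasi-likelihood test, adjusted p = 0.882). The interval runs from 0.590-fold to 18.8-fold, so both a decrease and a large increase fit the spread between libraries. The control libraries had a coefficient of variation of 125% and the CIH libraries one of 33.1%, against medians of 84.1% and 27.6% for the 395 miRNAs that averaged 10 CPM or more. In bulk tissue, fewer cells of a type and less RNA per cell cannot be told apart.

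miR-211-5p averaged 1.45 ± 1.31 CPM (SD, n = 3) under control conditions and 6.48 ± 3.26 CPM (SD, n = 3) under CIH. The fitted log2 fold change was 2.35, with a standard error of 1.37 and a 95% interval of -0.93 to 5.63 (same edgeR test, adjusted p = 0.882). This fitted value rests on 4 control counts and 19 CIH counts. The ratio of these summed counts, per normalized library size, was 9.28 with an exact 95% counting interval of 3.08 to 37.5. A counting interval on summed counts leaves out the spread between libraries, which the fitted interval includes. Without Control 2, which had no count and the greatest depth, the ratio was 2.91 (0.967 to 11.8), so that library decided whether the counting interval reached 1. Without Control 1 it was 16.1 (3.89 to 143), and without Control 3 it was 15.1 (3.65 to 134).

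Neither paralog was called, either by adjusted p or by an unadjusted p-value under 0.05 (0.143 for miR-204-5p and 0.133 for miR-211-5p in edgeR's test) with a change of at least 1.5-fold, a fold limit that was set here. By the latter criteria 0.474% of the 633 miRNAs tested were called higher in the CIH group. With limma voom in place of edgeR, miR-204-5p met them (log2 fold change 2.54, unadjusted p = 0.0334), among 75 miRNAs called in both directions, and miR-211-5p did not. By adjusted p, 0% were called with edgeR, where 16 had an unadjusted p-value under 0.05, and DESeq2 and limma voom also gave 0. Larger log2 fold changes than that of miR-204-5p were found for 5.69% of the miRNAs tested, and larger ones than that of miR-211-5p for 1.74%. The place of miR-211-5p rests on 4 control and 19 CIH counts, and the study had selected this miRNA as upregulated from these libraries. miR-211-5p also passed the filter of at least 10 summed counts only through its CIH counts, so its place is a description only. The median over all miRNAs tested was 0.07, and 0.33 with library totals in place of TMM factors.

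**Figure D2:**
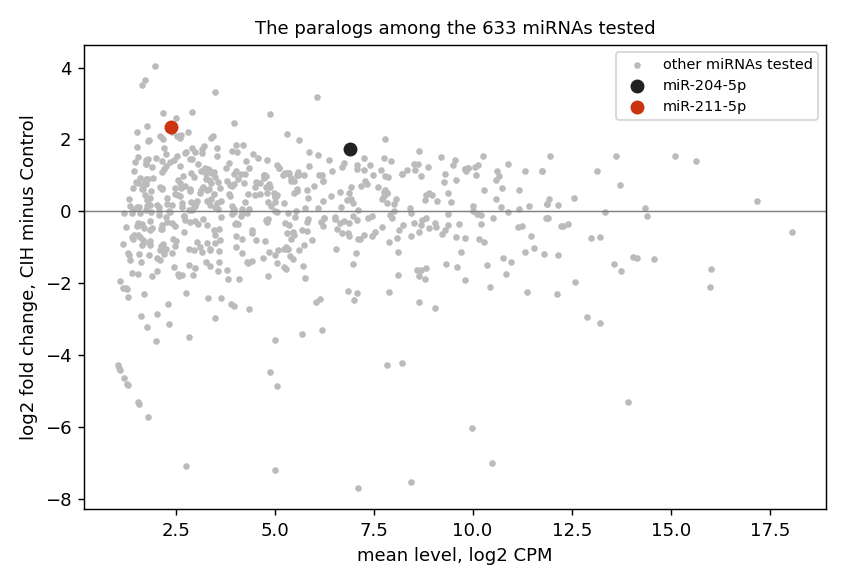
Log2 fold change between the CIH and control groups (vertical axis) against mean level in log2 CPM (horizontal axis) for the 633 miRNAs tested. Grey points are other miRNAs; miR-204-5p (black, 1.74) and miR-211-5p (red, 2.35) lie in the upper part of the spread, miR-211-5p among the least abundant miRNAs.

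The groups did not overlap for either paralog, but the gaps were narrow. For miR-204-5p the gap lay between 134 CPM in Control 3 and 136 CPM in CIH 1, and for miR-211-5p between 2.55 CPM in Control 1 and 3.21 CPM in CIH 1. All CIH libraries were above all control libraries for 5.06% of the miRNAs tested. The exact permutation test over libraries gave p = 0.1 (two-sided) for each paralog, the smallest value that 3 libraries against 3 allow. With library totals the groups overlapped for miR-204-5p, with 188 CPM in Control 3 and 107 CPM in CIH 1. For miR-211-5p they then stood 2.52 CPM in Control 3 against 2.53 CPM in CIH 1, and 3.63% of the miRNAs had CIH libraries above all control libraries on that scale.

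Leaving out Control 3, a choice made from these same data, changed the call for miR-204-5p and not for miR-211-5p. The log2 fold change of miR-204-5p was then 3.53 (standard error 0.65, 95% interval 1.92 to 5.13), and it was called with an adjusted p of 0.0162 from edgeR's test. For miR-211-5p it was 3.10 (standard error 1.57, 95% interval -0.77 to 6.98, edgeR adjusted p = 0.210). Without Control 3, 16.1% of all miRNAs tested were called higher in the CIH group, and 18.0% had a larger log2 fold change than miR-204-5p. Control 1 and Control 2 are the libraries that stood apart across all miRNAs, so miR-204-5p moved with that separation, and its part in the result was not tested.

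**Figure D3:**
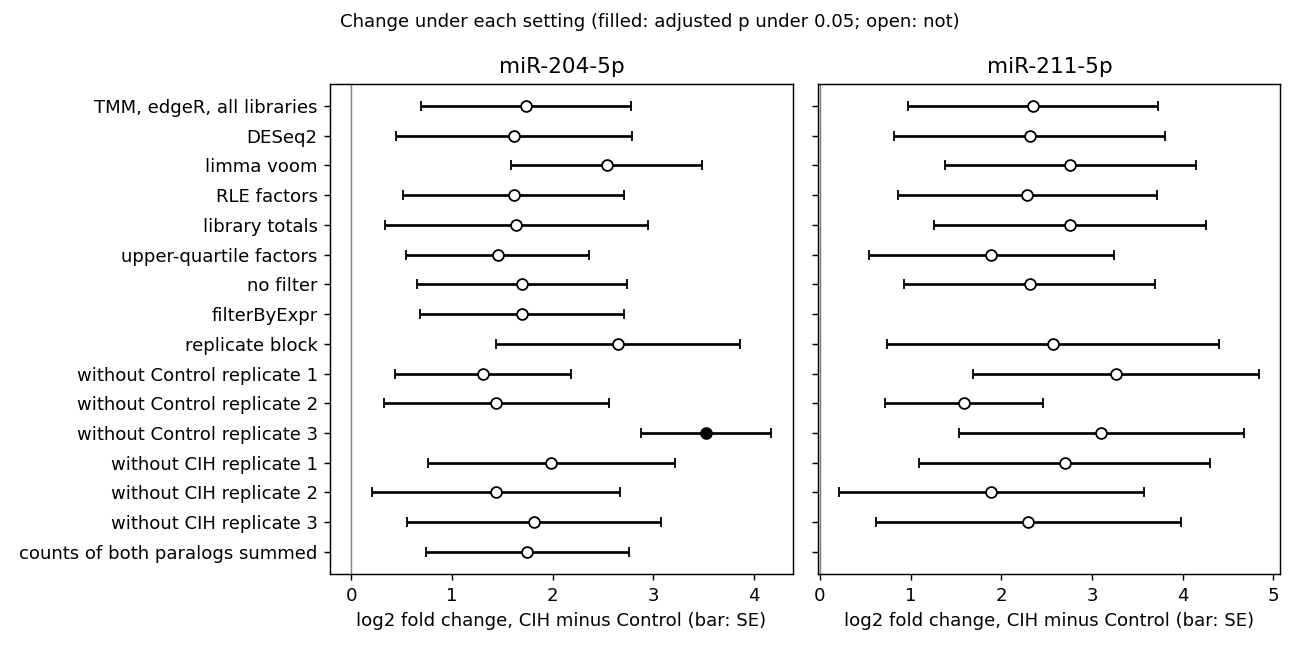
Log2 fold change of miR-204-5p (left) and miR-211-5p (right) between the CIH and control groups (horizontal axis) under each setting (vertical axis), with standard errors as bars. In the left panel the setting with summed counts shows both paralogs together, not miR-204-5p alone. Filled points have an adjusted p under 0.05; the filled point is miR-204-5p without Control 3 (3.53), and all values lie above 0.

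The counts of the paralogs were then compared within each library, which needs no correction for library size. miR-204-5p had more counts than miR-211-5p in 6 of 6 libraries. The mean log2 ratio of miR-211-5p to miR-204-5p, with 0.5 added to each count, was -4.90 ± 1.96 (SD, n = 6), and it differed from 0 in a two-sided exact sign-flip permutation test (p = 0.031, the smallest that 6 libraries allow). Sequences this similar and equal in length can still be ligated and counted with unequal efficiency, which was not tested. The authors' handling of reads that match both is not given in the sources used here. No other row of the table held the same counts as either paralog.

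As a share of the counts of both, miR-211-5p made up 2 of 9 counts in Control 1 (22.2%, 95% Wilson interval 6.32 to 54.7%). It made up 0 of 91 in Control 2, where the upper Wilson limit is 4.05% and the 3 counts that a count of 0 allows are 3.30%, and 2 of 151 in Control 3 (1.32%, 0.364 to 4.70%). In the CIH libraries it made up 4 of 173 in CIH 1 (2.31%, 0.903 to 5.79%), 9 of 242 in CIH 2 (3.72%, 1.97 to 6.92%) and 6 of 156 in CIH 3 (3.85%, 1.77 to 8.14%). The CIH libraries thus agree within sampling noise, and the control libraries hold both the highest and the lowest shares. The share of Control 1 comes from the library in which miR-204-5p had 7 counts while miR-211-5p had as many counts as in Control 3.

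**Figure D4:**
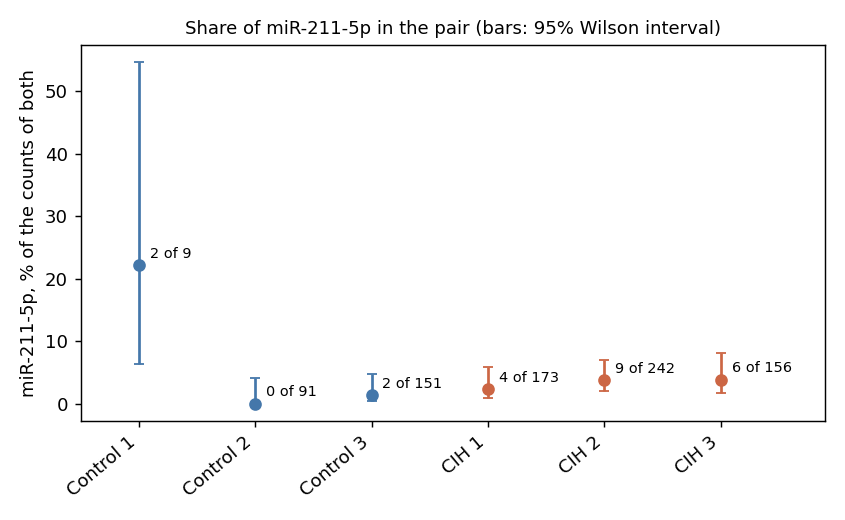
Share of miR-211-5p in the summed counts of miR-204-5p and miR-211-5p (vertical axis, %) in each library, with 95% Wilson intervals as bars and the counts beside the points. The CIH libraries lie between 2.31% and 3.85%; the control libraries run from 0% to 22.2%, the latter from 9 counts in all.

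Whether the paralogs moved differently with CIH was tested on the same log2 ratio. It averaged -5.00 ± 3.07 (SD, n = 3) under control conditions and -4.80 ± 0.383 (SD, n = 3) under CIH. The difference of 0.20 was smaller than the spread between control libraries (two-sided exact permutation test, p = 1, where 0.1 is the smallest possible), and it does not show that the paralogs moved alike. The value depended on single control libraries: it was 1.91 without Control 1, -1.05 without Control 2 and -0.25 without Control 3. Summed over each group, miR-211-5p made up 1.59% (0.621 to 4.03%) of the control counts and 3.33% (2.14 to 5.14%) of the CIH counts, with Wilson intervals that overlap. Without Control 3 the control share was 2% (0.55 to 7%). These intervals pool the counts of a group and leave out the spread between libraries.

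Whether the RT-qPCR assay read both paralogs was not tested, since its reverse transcription primer was not examined here. As the listed gene-specific primer matches bases that both hold, the summed counts were also compared. They came to 9, 91 and 151 for Control 1, 2 and 3 and to 173, 242 and 156 for CIH 1, 2 and 3, and between 77.8% and 100% of them were miR-204-5p. Tested in place of the separate values, the sum had a log2 fold change of 1.75 with a standard error of 1.01 (edgeR, adjusted p = 0.882). Without Control 3 it was 3.47 with a standard error of 0.60 (edgeR, adjusted p = 0.0128). The sum consists mostly of miR-204-5p counts, so its likeness to miR-204-5p in both fits is no separate result.

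The patterns of the paralogs over the 6 libraries were described by the miRNAs most like them. Log2 CPM was compared with that of every miRNA with at least 50 summed counts, as a description of libraries that share their normalization and of which Control 1 and Control 2 stand apart. Of 454 miRNAs compared, 106 had a Pearson correlation above 0.9 with miR-204-5p. The closest, MIMAT0004885 (0.987), was counted 0, 9 and 110 times in Control 1, 2 and 3 and 121, 125 and 61 times in CIH 1, 2 and 3, so it was low in the same libraries. For miR-211-5p, 3 of 455 did, and the closest, MIMAT0000143 (0.991), was counted 10, 2 and 11 times in Control 1, 2 and 3 and 30, 70 and 43 times in CIH 1, 2 and 3. That miRNA was low in Control 3 and lowest in Control 2, as was miR-211-5p. The correlation between the paralogs themselves was 0.644. The values of miR-211-5p rest on 0 to 9 counts, so its correlations carry counting noise that those of miR-204-5p do not carry to the same extent, and the numbers of like miRNAs are not a comparison of the paralogs.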

How the data were processed

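Small RNA libraries of WAT were compared between 3 control and 3 CIH samples, grouped by their labels. The authors deposited raw read counts per mature miRNA accession. The aligner, the database release and the handling of reads matching several miRNAs are not given in the sources used here. The accessions of the members were named by the list that defined them. miR-211-5p, with 4 control and 19 CIH counts, passed the filter of at least 10 summed counts only through the CIH libraries. miR-204-5p reached that limit in each group, and the filter left 633 miRNAs. These were tested with edgeR 4.0.16 (R 4.3.3, TMM factors, quasi-likelihood test, no covariate) and adjusted by Benjamini-Hochberg over all of them, after a check on simulated data. The simulated libraries varied far less than these libraries do, so the check does not show how the test performs at the spread seen here. Alternatives were DESeq2 1.42.0, limma 3.58.1 with voom, other size factors and filters, the replicate number as a block, and each library left out in turn. Ratios used exact permutation tests in Python 3.11.15 with scipy 1.17.1. Sequences came from RefSeq (GRCm38.p6), hosts from GENCODE M21 (GRCm38), and the primer from the study's primer list. Values were to be given for the members, the other arms, miRNAs with the same seed, the other RT-qPCR miRNAs, other pairs 1 base apart, marker miRNAs of adipose tissue, nerve, pancreas, muscle, liver, epithelium, blood and hypoxia, and the 3 miRNAs most like each member. No list that pairs accessions with names was used here, so only the members and the nearest miRNA of each are given. The members and lists were chosen with earlier results of these data known.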

Additional observations from a re-analysis of the deposited data

How the results depend on the processing

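The log2 fold changes of both paralogs were above 0 in every setting run, 14 alternatives for miR-204-5p and 13 for miR-211-5p, which the filterByExpr filter left untested. With each library left out in turn, miR-204-5p ran from 1.31 without Control 1 to 3.53 without Control 3, the only call, and over its alternatives the adjusted p ran from 0.0162 to 0.975. By an unadjusted p-value under 0.05 with a 1.5-fold change, miR-204-5p was called in 2 of 14 alternatives, limma voom and without Control 3, and miR-211-5p in 0 of 13. Replicate numbers are shared by the groups in the labels. Correlations of the deviations of same-numbered libraries were 0.353, -0.116 and 0.0195, and 2 of 6 libraries correlated best with their own number. With 3 libraries per group this check cannot exclude a pairing, and the main fit treated the libraries as unpaired. With the replicate block the log2 fold changes were 2.65 and 2.57, neither called, and the difference in log2 ratio was 0.20.

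The difference in log2 ratio turned to -0.16 with 1 added to each count, and leaving out each library gave -1.05 to 1.91. The mean log2 ratio lay between -5.56 and -4.37 when any library was left out, where p was 0.0625, the smallest that 5 libraries allow.

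By the unadjusted p-value with a 1.5-fold change 16 miRNAs were called, against 26 with DESeq2, 75 with limma voom, 39 with upper-quartile factors, 8 with filterByExpr, 3 with the block and 1 to 238 with each library left out, the highest without Control 3. By adjusted p the count ran from 0 to 118, the latter without Control 3. The cause was not tested. Counts in single digits limit miR-211-5p in every library and miR-204-5p in Control 1.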
